A study of Mus musculus with 8 samples.

Results

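The ovaries labelled WT, 4 of the 8 sequenced ovaries of the series, are described here on their own, as a baseline of the juvenile mouse ovary. They were taken by their label, as the 4 columns of the deposited gene counts that carry the WT name. The series was made to learn what the ovary lacks when ghrelin O-acyltransferase (GOAT), the enzyme that acylates the hormone ghrelin and the product of Mboat4, is deleted. Each library came from 1 snap-frozen ovary of 1 female C57/Bl6 mouse, 3 weeks old and before puberty, born to heterozygous parents that gave WT and knock-out littermates. The 4 WT animals carry the numbers 1118, 1119, 1120 and 1121, received no treatment that the labels name, and apart from the counts of Mboat4 no value of theirs is set against the GOAT KO animals below. The methods of the study set a WT library aside as an outlier on a scaling plot, without naming it in the sources used here. All 4 are kept here, and means that moved most with 1 of them are also given without it.

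The juvenile ovary holds follicles at every stage up to the early antral one, but no corpora lutea, since ovulation has not begun. In each follicle an oocyte, which makes the zona pellucida around it and secretes growth factors such as GDF9 and BMP15, is enclosed by granulosa cells that nourish it through gap junctions and make inhibins, activins and anti-Müllerian hormone. From the secondary stage on, theca cells join from the surrounding stroma and make the androgens that granulosa cells of large follicles turn into oestrogens with aromatase. RNA of a whole ovary mixes these cells, so fewer cells of a type and less RNA per cell cannot be told apart in any value below.

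Between 26599628 and 29668303 single reads of 50 bases were obtained per WT library, of which 85.9 to 86.8% mapped to the genome. Counts on genes summed to between 16147216 and 18477277 per library and are given as CPM, counts per 1000000 counts, with totals scaled between the 4 libraries by the TMM method. A count of 0 allows up to 3 counts, or 0.163 to 0.186 CPM, in a library, an interval that covers counting error only. No pair of libraries agreed within counting noise (mean chi-square per gene between 4.24 and 27.2, where 1 would be noise alone), so each was counted as 1 animal. Counts of the targeted gene were few and ran against the labels. Mboat4 had 1, 1, 1 and 3 counts in the libraries labelled WT and 5, 7, 7 and 8 in those labelled GOAT KO. By the study's own qRT-PCR, reported without its data, Mboat4 did not amplify in juvenile GOAT KO ovaries. That check was not analysed here, and WT is used as the label of these libraries.

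Of 45583 gene symbols in the deposited table, 25869 had at least 1 count in the 4 WT libraries and 15419 had a mean of at least 1 CPM, of which 13319 were protein coding. The counts were spread over many genes, in a table that lists the genes of the mitochondrial genome at 0. The 10 most abundant genes held 2.71% ± 0.134 (SD, n = 4) of the counts, the top 100 held 12.1% ± 0.262 and the top 1000 held 39.6% ± 0.625, and 1631 genes were needed to reach 50% of the summed CPM. By level, 51 genes had at least 1000 CPM and held 8.19% of the summed CPM, 2706 genes between 100 and 1000 CPM held 55.3%, and 8140 genes between 10 and 100 CPM held 34.5%.

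By share of counts the list was led by Gja1 and Inha. Gja1, which encodes connexin 43, the gap junction protein that couples granulosa cells to each other, had 3125, 3642, 3508 and 3563 CPM in WT 1118, 1119, 1120 and 1121. Inha, the inhibin alpha subunit of granulosa cells (chr1:75507077-75510366, plus strand, GRCm38), had 3092, 3464, 3904 and 3264 CPM. The 4 values of either gene lay within a narrow band, with a coefficient of variation (CV, SD over mean) of 6.63% for Gja1 and 10.2% for Inha, and WT 1118 was the lowest for both. Behind them came Nedd4, a ubiquitin ligase, Eef2, an elongation factor of translation, Ivns1abp, Tenm4, Akr1cl, Thbs1, the matrix protein thrombospondin 1, Hsp90ab1, a chaperone, Eef1a1, Flna, Syne2, Hsd3b1 and Xist, with means from 3056 CPM for Nedd4 to 1810.4 CPM for Xist.

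**Figure D1:**
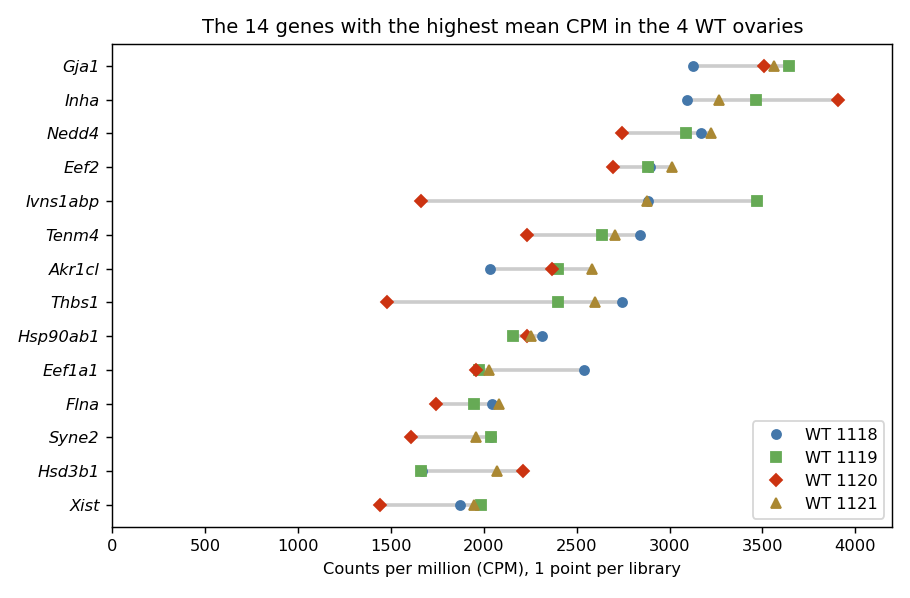
CPM (x axis) of the 14 genes with the highest mean (y axis) in the 4 WT ovaries, 1 marker per library, with a grey bar from the lowest to the highest library. Ivns1abp and Thbs1 show the widest bars, and the red diamond of WT 1120 is at their low end (1661 and 1479 CPM).

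Long genes collect more reads, so levels were also divided by the length of the union of the exons. Per kb, Inha led the protein-coding genes with 2326 CPM per kb, followed by Hsd3b1, which turns pregnenolone into progesterone, with 1025 CPM per kb. Rplp1, a protein of the large ribosomal subunit, had 995, Eef2 had 864, Eef1a1 had 852 and Rpl4 had 822 CPM per kb, so the next places went to the translation machinery. Hsp90ab1 (747), Rpl8 (699), Rps15 (670), Akr1cl (557), Ivns1abp (501), Actb (472), Serpinh1, the chaperone of collagen (451), and Itm2b (447 CPM per kb) came after them. Gja1, first by counts, was number 28 of the protein-coding genes per kb, with 337 CPM per kb over an exon length of 10257 bases.

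Protein-coding genes took 96.4% of the counts in the mean of the 4 libraries. Processed pseudogenes took 1.84%, long intergenic non-coding RNAs 0.478%, genes of the annotation class of processed transcripts 0.224% and antisense genes 0.121%, while symbols that matched no annotated gene took 0.641%. Xist, the RNA that coats the inactive X chromosome in females, had 1870, 1984, 1440 and 1947 CPM, and Malat1, a nuclear RNA, had 627, 662, 642 and 870 CPM. Xist was lowest in WT 1120, and Malat1 was highest in WT 1121. Other genes with high counts in these annotation classes were 1700020I14Rik (310 CPM), Neat1 (185) and AI480526 (119) of the intergenic RNAs, Cct6a (326), which encodes a subunit of the cytosolic chaperonin and is a coding gene despite its class, Foxl2os (147), Gas5 (108), Snhg17 (90.2) and 8030451A03Rik (77.6) of the processed transcripts, and Tug1 (157), A530020G20Rik (87.3), Dnm3os (58.6), 4933431E20Rik (35.8) and Rab10os (23.0) of the antisense genes, all as mean CPM. Foxl2os lies beside Foxl2, the transcription factor that keeps granulosa cells female, and 0.4% of the exon length of Foxl2 is shared with the other strand. The use of strand in the counting is not given in the sources used here. Reads in stretches that antisense genes share with their partners therefore cannot be told apart.

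The pseudogenes with most reads were Gm5835 (388 CPM), Gm12183 (321), Gm13456 (313), Gm12328 (305) and Rpl14-ps1 (288 CPM), and as copies of other genes they are uncertain. The ribosomal protein genes, 85 in the count table, summed to 11265, 12195, 12722 and 11775 CPM. Their own levels ran from 0.0572 CPM to the 1649 CPM of Rpl4, with a median of 38.9 CPM, and Rpl29, Rpl10l and Rpl3l were under 1 CPM. WT 1120 was the highest library for 49 of the 83 that could be tested, where it was the highest of the 4 for 31.8% of all genes tested, and WT 1118 the lowest for 55, beside 31.5% of all. Between 13.6 and 14.5% of all reads mapped to the genome and were given neither to a single gene nor to none, and how far this touches genes with many pseudogenes was not tested.

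A value of 0 in the count table was not always a gene without reads. The deposited splice junctions, which come from the same alignments, gave at least 10 reads across annotated junctions to 81 of the 19714 genes that had 0 counts in the 4 WT libraries, and 64 of them were protein coding. Sf1, a splicing factor, had 1092, 1054, 1004 and 1082 junction reads at 0 counts, and Ppp1ca, a phosphatase subunit, had 677, 868, 994 and 944. Such genes were 0.697% of the 11616 genes with at least 10 junction reads. The 13 protein-coding genes of the mitochondrial genome were also at 0 counts, although the authors' assembled transcripts included 10, 13, 9 and 11 on that genome. The highest read depth of these transcripts was 9511, 7407, 7347 and 7662. Shares and ranks of genes in this report therefore hold for the count table only. Because such values of 0 do not show absence, a gene at 0 is described below as listed at 0, with its junction reads where it had any.

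Genes of the growing oocyte were found throughout. In the list of 28 genes of growing oocytes each gene had at least 1 CPM, and their CPM summed to 3305, 2830, 3008 and 2813 in WT 1118, 1119, 1120 and 1121 (2989 ± 229, SD, n = 4). WT 1118 had the highest sum, and it was the highest library for 19 of the 28 genes, beside 29.4% of all genes tested. Beyond counting error, tested by a chi-square test of the 4 counts of each gene with Benjamini-Hochberg adjustment over all genes, 23 of the 28 differed between the libraries, where 56.8% of all 16560 genes tested did. The share rose with level, to 66.8% of all genes between 10 and 100 CPM, 88.5% of those between 100 and 1000 CPM and each of the 51 above, so that most abundant genes passed the test. The test sets the spread between animals against counting error only. It reaches small differences at this depth. The ranges of these genes were narrow, with a median CV of 10.4%, the same to 3 digits as that of all genes with at least 1 CPM. That was above the median CV of genes between 10 and 100 CPM (9.09%) and between 100 and 1000 CPM (7.33%).

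Padi6, an enzyme-like protein of the oocyte's cytoplasmic lattices, had 439, 376, 389 and 375 CPM, and Nlrp14, an oocyte protein of the NLR family, had 386, 367, 401 and 376 CPM. Gdf9, the growth factor that drives granulosa cells past the primary stage, had 341, 283, 311 and 282 CPM. The highest and the lowest library of each of these genes were at most 1.21-fold apart. Per kb, Padi6 (156 CPM per kb), Gdf9 (150) and the zona pellucida gene Zp3 (131) led the list, and the other zona genes, Zp2 and Zp1, followed with 91.8 and 50.7. H1foo, the oocyte's linker histone, had 104, Bmp15, the partner of GDF9, had 49.6, Nlrp5, a maternal-effect gene, had 38.7 and Mos, the kinase of meiotic arrest, had 15.1 CPM per kb. Khdc3 stood at the bottom with 1.02 CPM per kb. Because 38.5% of its exon length is shared with another gene of the same strand, its count is uncertain.

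Promoters of 3 of these oocyte genes are shown because transcription factors of the oocyte such as FIGLA act through E-boxes, the motif CANNTG. That of Gja1 is shown as the gene with most counts in the table. Each is the RefSeq window of GRCm38.p6 from 250 bases before to 50 bases after the start, written 5′ to 3′ on the strand of the gene, with each E-box in capitals.
Zp3 (chr5:135979855-135980154, plus strand): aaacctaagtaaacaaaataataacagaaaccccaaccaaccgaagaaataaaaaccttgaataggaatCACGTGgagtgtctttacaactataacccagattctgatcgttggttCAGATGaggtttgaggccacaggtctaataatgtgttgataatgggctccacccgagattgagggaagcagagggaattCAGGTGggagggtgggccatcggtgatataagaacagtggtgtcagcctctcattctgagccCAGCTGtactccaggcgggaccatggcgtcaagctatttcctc
Bmp15 (chrX:6320675-6320974, minus strand): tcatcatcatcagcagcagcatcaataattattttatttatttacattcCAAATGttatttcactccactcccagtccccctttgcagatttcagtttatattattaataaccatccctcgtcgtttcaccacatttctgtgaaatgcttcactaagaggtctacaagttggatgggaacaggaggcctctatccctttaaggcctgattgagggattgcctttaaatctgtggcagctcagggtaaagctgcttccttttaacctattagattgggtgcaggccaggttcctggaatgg
Padi6 (chr4:140742594-140742893, minus strand): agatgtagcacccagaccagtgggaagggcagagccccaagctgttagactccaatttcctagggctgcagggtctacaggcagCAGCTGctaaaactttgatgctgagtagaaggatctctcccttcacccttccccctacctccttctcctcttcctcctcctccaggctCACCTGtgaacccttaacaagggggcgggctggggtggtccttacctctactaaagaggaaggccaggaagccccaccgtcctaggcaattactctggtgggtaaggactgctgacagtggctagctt
Gja1 (chr10:56377050-56377349, plus strand): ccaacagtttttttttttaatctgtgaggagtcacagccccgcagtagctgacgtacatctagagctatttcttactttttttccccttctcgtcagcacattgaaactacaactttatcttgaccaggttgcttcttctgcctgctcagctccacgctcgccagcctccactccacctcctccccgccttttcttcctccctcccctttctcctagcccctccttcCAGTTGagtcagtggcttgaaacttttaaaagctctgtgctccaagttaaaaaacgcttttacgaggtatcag
The Zp3 window held 4 E-boxes, beginning at -181, -134, -55 and 7 bases from the start, that of Padi6 held 2, at -166 and -78, that of Bmp15 held 1, at -201, and that of Gja1 held 1, at -23. The start of the transcript that the authors assembled lay -6 bases from the RefSeq start for Zp3, 3 bases for Bmp15 and 0 bases for Gja1 in each of the 4 libraries, in an assembly guided by the annotation. None was tied to the gene Padi6 in any library, so its start has no such check.

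RefSeq windows were found for 17 of the 28 growing oocyte genes, and 18 of their 19 windows (94.7%) held an E-box. The share was 72.3% over all 32851 windows, 64.5% over windows of genes with at least 1 CPM and 71.4% (10 of 14) over those of the granulosa list. TAATTG, a motif that NOBOX, another factor of the oocyte, binds, was searched on both strands and stood in 3 of the 19 oocyte windows (15.8%, Padi6, Ooep and Omt2b) and in 8% of all. These counts describe letters in a window and no binding was measured.

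**Figure D2:**
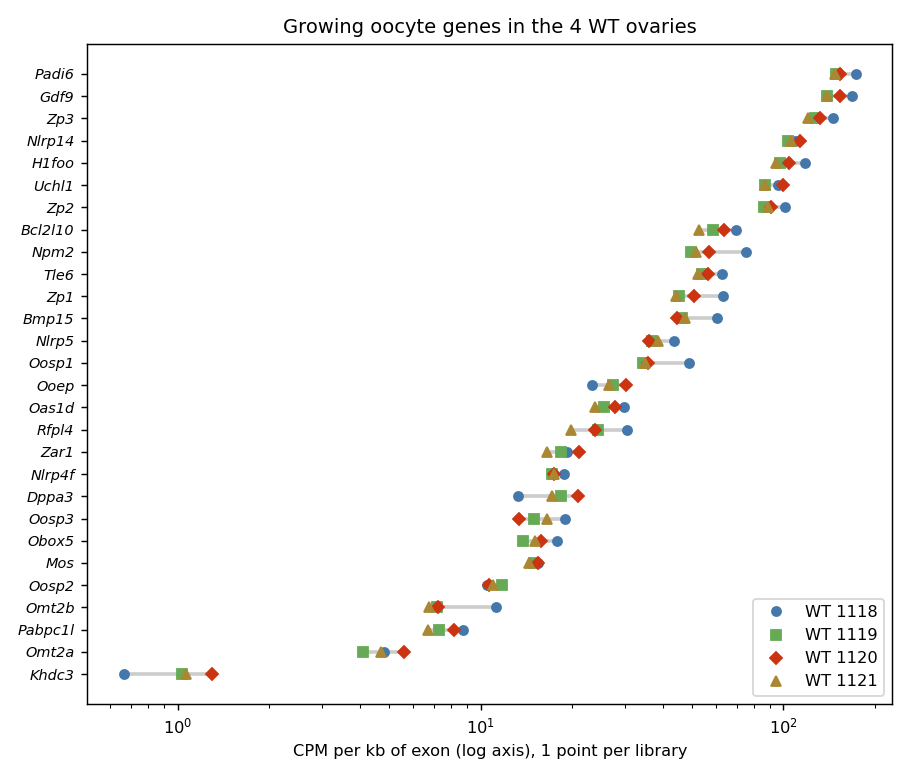
CPM per kb of exon (x axis, log scale) of the 28 growing oocyte genes (y axis) in the 4 WT ovaries, 1 marker per library, with a grey bar over their range. The blue circle of WT 1118 is the rightmost marker for 19 genes, and the levels run from 1.02 CPM per kb for Khdc3 to 156 for Padi6.

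Genes of oocytes in small follicles were lower per kb than those of growing oocytes. The 11 genes of that list had a median of 4.42 CPM per kb, against 32.6 for the growing oocyte list, and summed to 273, 243, 243 and 272 CPM. Kit, the receptor that binds Kit ligand of granulosa cells, had 92.8, 82.2, 82.8 and 105 CPM, Taf4b had 56.7, 61.4, 54.3 and 60.4 and Nobox 56.5, 38.9, 44.5 and 42.4 CPM. Figla was at 2.16 ± 0.184 CPM (SD, n = 4), and its 4 libraries did not differ beyond counting error. Kit is also a gene of theca, mast and other cells, and without it the list summed to 167 CPM.

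Genes of meiotic prophase, much of which oocytes complete before birth, were low. Of the 11 genes 7 had a mean of at least 1 CPM, with Sycp2, of the synaptonemal complex, at 3.55 CPM. Stra8, which starts meiosis, was listed at 0 with 0 junction reads, Hormad1 had 2 counts in all, and the 11 genes summed to 20.8, 16.02, 21.6 and 20.1 CPM, led by Smc1b with 5.10 CPM on average. Of the 8 with enough counts to test 1 differed between libraries, beside 56.8% of all genes tested and 29.9% of those between 1 and 10 CPM. It was Rec8, with 4.09, 1.502, 6.16 and 2.02 CPM.

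Granulosa cell genes had the largest sum of the cell type lists, in CPM and per kb. The 18 genes of granulosa identity summed to 10361, 12042, 12409 and 11289 CPM (11525 ± 905, SD, n = 4), of which Gja1 made 30.01%, and to 4093 CPM per kb. Each of the 18 differed between the libraries beyond counting error, beside 56.8% of all genes tested and 88.5% of those between 100 and 1000 CPM. Amh, anti-Müllerian hormone, had 353, 424, 450 and 344 CPM, its receptor Amhr2 had 192, 215, 251 and 190 CPM, and Fshr, the FSH receptor, had 33.0, 35.7, 42.5 and 32.8 CPM. WT 1120 was the highest library for these and for 10 of the 18 genes in all, beside 31.8% of all genes tested, and the lowest for 7 of the 18, beside 32.9% of all.

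Within that list genes differed in which library was highest. Inhbb, the activin beta B subunit, had 487, 708, 1190.4 and 679 CPM, and Foxl2 had 54.4, 50.5, 69.2 and 44.1 CPM, both highest in WT 1120. Nr0b1, which encodes the repressor DAX1, had 23.1, 28.3, 11.8 and 20.7 CPM, Wt1 had 222, 180, 123 and 172 CPM and Esr2, oestrogen receptor beta, had 455, 536, 321 and 472 CPM. All 3 were lowest in WT 1120, as was Nr5a2, the nuclear receptor LRH-1, with 824, 1037, 763 and 939 CPM.

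Among genes that granulosa cells of antral follicles use, Cyp19a1 and Inhba had wide ranges. Cyp19a1, aromatase (chr9:54165937-54268110, minus strand), had 6.57, 5.06, 64.5 and 9.73 CPM. Inhba, the activin beta A subunit (chr13:16011851-16031621, plus strand), had 49.6, 70.4, 179 and 94.1 CPM. WT 1120 stood alone at the top for both, 12.7-fold above the lowest library for Cyp19a1 and 3.60-fold for Inhba. Junction reads of Cyp19a1, from a separate deposited file of the same reads, were 12, 11, 216 and 35. Without WT 1120 the mean of Cyp19a1 was 7.08 CPM in place of 21.5.

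Of the 10 genes of the antral list 6 were highest in WT 1120, beside 31.8% of all genes tested, while the sum of the list was not. The 10 genes summed to 1889, 1991, 1803 and 1688 CPM, of which Slc18a2, a vesicular monoamine transporter, made 57.2%, with 1176, 1205, 876 and 962 CPM. Without Slc18a2 the list summed to 713, 785, 927 and 726 CPM, highest in WT 1120. Igf1, insulin-like growth factor 1, had 313, 316, 186 and 243 CPM, and Hsd17b1, which makes oestradiol from oestrone, had 258, 309, 400 and 295 CPM, so that the first was lowest and the second highest in WT 1120. Nppc, the peptide that keeps oocytes in meiotic arrest, had 11.8, 16.1, 17.1 and 15.9 CPM, and Snap25 was under 1.1 CPM in each library.

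Genes of ovulation were low. Areg, an EGF-like signal of the LH surge, was listed at 0 with 0 junction reads, Sult1e1 had 1 count in all, and Ptgs2, the prostaglandin synthase of ovulation, had 0.310, 0.723, 0.545 and 0.328 CPM. Of the 11 genes 4 had a mean of at least 1 CPM: Adamts1 (33.2, 31.5, 33.4 and 32.0 CPM), Ptx3, Btc and Pgr, the progesterone receptor, the last at 2.29 CPM on average. Luteal genes were held up by general ones, since Cdkn1b, a cell cycle inhibitor, made 49.4% of a sum of 300 ± 10.4 CPM and Prlr, the prolactin receptor, had 62.2, 62.9, 89.8 and 74.2 CPM. Akr1c18, which breaks down progesterone, was at 0.817 to 1.86 CPM. Its count is uncertain, since the 85 counts it had in all stand beside 28, 225, 199 and 193 junction reads, which are more than the counts in 3 of the 4 libraries and have another order. Lhcgr, the LH receptor, had 36.5, 27.9, 31.5 and 29.2 CPM.

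Theca cell and steroidogenic genes separated WT 1120 from the others in their sum as well. The 15 genes summed to 3670, 3745, 5509 and 4451 CPM (4344 ± 853, SD, n = 4), and 3936 CPM on average without WT 1120. All 14 with enough counts differed between the libraries beyond counting error, beside 56.8% of all genes tested. The share was 66.8% of genes between 10 and 100 CPM and 88.5% of those between 100 and 1000 CPM. Of the 14 genes 11 were highest in WT 1120, beside the 31.8% of all genes given above. Hsd3b1 made 43.8% of the sum, with 1668, 1660, 2210 and 2069 CPM.

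Cyp17a1, which turns progestins into androgens in theca cells (chr19:46667165-46673172, minus strand), had 50.2, 56.9, 352 and 58.8 CPM. Its mean was 130 CPM with WT 1120 and 55.04 CPM without. Cyp11a1, which cuts the side chain of cholesterol, had 197, 252, 469 and 306 CPM, and Star, which carries cholesterol into mitochondria, had 14.2, 14.6, 31.7 and 12.5 CPM. In each case WT 1120 was above the other 3, whose values lay together for Cyp17a1 and Star.

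The electron donors and the cholesterol supply of these enzymes were highest in WT 1120 as well. Fdx1, ferredoxin, had 31.3, 45.8, 98.8 and 42.8 CPM, its reductase Fdxr had 112, 123, 222 and 128 CPM, and Scarb1, the HDL receptor, had 181, 183, 406 and 191 CPM. Mgarp, a mitochondrial protein of steroidogenic cells, had 36.4, 41.7, 142 and 62.1 CPM, and 46.5 CPM on average without WT 1120. The hedgehog targets of theca cells went the other way, Ptch1 with 341, 337, 266 and 375 CPM and Gli1 with 78.0, 65.2, 52.5 and 77.4 CPM, both lowest in WT 1120. Nr5a1, the regulator SF-1, varied by 1.21-fold, between 208 and 251 CPM. Insl3, a hormone of theca cells, was under 0.6 CPM in each library, with 64.8% of its exon length shared with another gene of its strand, and its count is uncertain.

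**Figure D3:**
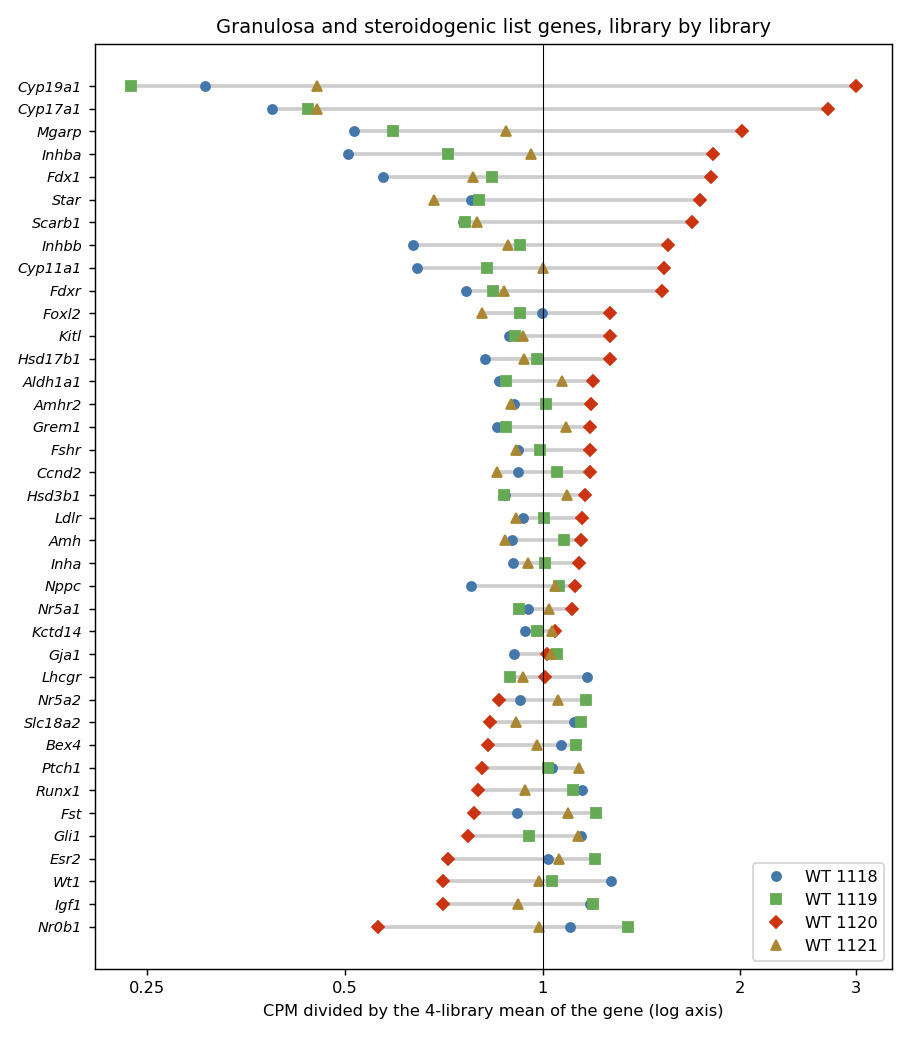
Level of each gene of the granulosa identity, antral granulosa and theca lists with a mean of at least 1 CPM (y axis) in each WT ovary, divided by the mean of the gene over the 4 libraries (x axis, log scale). The red diamonds of WT 1120 are far to the right for Cyp19a1 and Cyp17a1 and to the left for Nr0b1, Igf1, Wt1 and Esr2.

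Stromal genes were abundant and even. The 15 genes summed to 4979, 4758, 4407 and 5060 CPM (4801 ± 292, SD, n = 4), and the 3 fibrillar collagen genes made the largest part, Col3a1 with 1173, 1183, 1088 and 1289.9 CPM, Col1a2 with 961, 1024, 964 and 1101.5 CPM and Col1a1 with 438, 433, 378 and 375 CPM. Per kb, Ogn (194 CPM per kb), a small proteoglycan, stood above Col3a1 (121). Of the 15 genes 14 differed between the libraries beyond counting error, beside 56.8% of all genes tested and 88.5% of those between 100 and 1000 CPM. WT 1120 was the lowest library for 10 of the 15, beside 32.9% of all, among them Pdgfra, the PDGF receptor of stromal cells, with 238, 213, 183 and 271 CPM. The genes of smooth muscle and pericytes summed to 2570, 2335, 2282 and 2537 CPM, led by Acta2, smooth muscle actin, with 971, 806, 782 and 879 CPM, and by Myh11 with 563, 504, 452 and 553 CPM. Of the 12 genes of that list 9 differed between the libraries beyond counting error, and Myl9, Des and Cnn1 did not pass the test. The share was 56.8% of all genes tested, 66.8% of those between 10 and 100 CPM and 88.5% of those between 100 and 1000 CPM.

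Blood vessel genes had a small sum, with a CV of 7.32% over the libraries. The 12 genes of blood endothelium summed to 458, 423, 416 and 486 CPM, with Cdh5, the cadherin of endothelial junctions, at 101, 83.2, 72.4 and 96.2 CPM and Pecam1 at 60.1, 51.7, 49.4 and 60.8 CPM. Of the 12 genes 7 were highest in WT 1121, beside 19.7% of all genes tested, and 7 lowest in WT 1120, beside 32.9%. Beyond counting error 10 of the 12 differed, beside 56.8% of all genes tested and 66.8% of those between 10 and 100 CPM. The lymphatic list was carried by Reln, reelin (chr5:21884454-22344702, minus strand), which made 76.7% of it and is also made outside lymphatic vessels. Reln had 226, 250, 82.0 and 241 CPM, and without it the list summed to 60.6 CPM. Lyve1, a receptor of lymphatic endothelium and some macrophages, had 11.4, 11.5, 12.1 and 13.3 CPM, and Prox1, the factor that sets lymphatic identity, had 15.2, 12.9, 9.59 and 13.2 CPM. In WT 1120 Reln was 0.343-fold of the mean of the other 3 libraries, while Lyve1 lay within their range and Prox1 below it. Pdpn, podoplanin, and Ccl21a, a chemokine, were listed at 0, but had 128, 200, 209 and 180 junction reads and 42, 62, 8 and 12 junction reads, so that their counts do not show their absence.

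The surface epithelium was seen at a low level. Its 12 genes summed to 234, 240, 194 and 223 CPM, led by Upk3b, a uroplakin of mesothelial cells, with 61.5, 55.5, 44.1 and 51.5 CPM, and by the keratin gene Krt8 with 26.4, 32.4, 35.4 and 25.2 CPM. WT 1120 was the lowest library for 11 of the 12 genes (10 with plain library totals), beside 32.9% of all genes tested, and it was the highest for Krt8. Lgr5, a receptor of stem cells in the surface layer, had 14.5, 12.4, 8.23 and 11.7 CPM.

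Among immune cells macrophages stood first. The 15 genes of macrophages and monocytes summed to 219.95, 172, 177 and 223 CPM, with Lyz2, lysozyme, at 63.9, 52.4, 54.9 and 64.6 CPM, Mrc1, the mannose receptor, at 26.4, 22.3, 20.6 and 30 CPM and Csf1r, the receptor of the growth factor CSF1, at 16.9, 12.4, 12.04 and 21.3 CPM. The complement genes C1qa, C1qb and C1qc lay between 10.5 and 19.3 CPM. WT 1118 and WT 1121 had the higher sums, and they were the highest library for 7 and 6 of the 15 genes, beside 29.4 and 19.7% of all genes tested.

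Lymphocyte genes were low. The 13 genes of T and NK cells summed to 9.41, 7.79, 8.94 and 9.02 CPM, and Cd3e, Cd3d and Cd8a were under 0.3 CPM in each library. Lck, a kinase of T cells, made 43.0% of that sum, with 3.10, 3.28, 4.85 and 3.88 CPM. The 10 genes of B and plasma cells summed to 12.2 ± 0.638 CPM (SD, n = 4), led by Ighm at 5.69 CPM and Ms4a1 at 3.83 CPM. Of the 6 lymphocyte genes with enough counts 0 passed the chi-square test between libraries (1 had an unadjusted p under 0.05), beside 29.9% of all genes between 1 and 10 CPM and 14.1% of those tested below 1 CPM.

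Neutrophil genes had the lowest sum of the immune lists. The 8 neutrophil genes summed to 0.546 to 1.253 CPM, and Ly6g, Camp and Elane were listed at 0. The 7 mast cell genes summed to 12.3 to 21.1 CPM. Hdc, the histamine-making enzyme, made 91.5% of the mast cell sum with 13.4, 12.1, 20 and 11.0 CPM, while the defining proteases Cpa3, Cma1 and Mcpt4 were at most 0.619 CPM in any library and Fcer1a was listed at 0.

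Red blood cell genes differed most between animals among the lists of other cell types. Hbb-bs, a beta globin, had 278, 336, 85.2 and 94.96 CPM and Hba-a1, an alpha globin, had 68.1, 101, 25.9 and 30.8 CPM. Alas2, the haem enzyme of red cells, had 13.7, 24.6, 5.29 and 9.84 CPM. WT 1118 and WT 1119 were above WT 1120 and WT 1121 for these genes, the list summed to 437, 593, 146 and 172 CPM, and each of the 5 genes tested was highest in WT 1119 and lowest in WT 1120, beside 19.1 and 32.9% of all. Hba-a1 and Hba-a2, and Hbb-bs and Hbb-bt, are near-identical copies, so the split within each pair is uncertain. Both alpha globin genes had more junction reads than counts over the 4 libraries (6923 beside 3957 for Hba-a1, 6907 beside 2259 for Hba-a2).

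Other tissues that a dissection can carry along were checked by their markers. Adipoq, adiponectin of fat cells, had 0.991, 0.779, 0.545 and 2.68 CPM and Cfd, adipsin, had 1.61, 1.00, 0.708 and 4.43 CPM, both highest in WT 1121, as were 4 of the 7 adipocyte genes tested, beside 19.7% of all. The adipocyte sum of 96.9 to 120 CPM was made to 48.2% by Pparg, which granulosa cells also express, with Lipe and Plin1 after it. Ovgp1, oviductin, had 2.97, 3.39, 4.20 and 9.62 CPM. It was the 1 gene of the 7 tested in the oviduct list that was highest in WT 1121, beside 19.7% of all genes tested. WT 1120 was the highest library for 3 and WT 1118 for 2, beside 31.8 and 29.4% of all (4 and 1 with plain library totals). Foxj1, a factor of ciliated cells, had 0.434 to 1.58 CPM. Myh4 of skeletal muscle and Ins1 and Ins2 of the pancreas were listed at 0, the striated muscle list summed to 8.90 to 11.0 CPM and the list of other organs to 3.84 to 6.10 CPM. The part of such tissue in any other value was not tested.

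Nerve genes summed to 170 to 201 CPM, mostly from Pmp22 (114, 97.5, 99.3 and 98.4 CPM), which many cells make, while Sox10, a defining factor of Schwann cells, was at most 0.556 CPM in any library. Genes of the supporting cells of the testis were low or listed at 0. Sox9 had 5.08, 4.67, 3.60 and 3.66 CPM, Dmrt1 had 1 count in all and Rhox5 was listed at 0. Dhh, a hedgehog ligand that granulosa cells also make, had 47.9, 51.3, 65.1 and 39.0 CPM and made 81.6% of that list.

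Genes of dividing cells were well represented. The 12 genes of proliferation summed to 1626, 1790, 1694 and 1761 CPM (1718 ± 73.5, SD, n = 4), with Top2a, the topoisomerase of dividing cells, at 437, 527, 464 and 512 CPM and Mki67 at 450, 434, 366 and 428 CPM. Immediate early genes, which respond within minutes to handling or signals, summed to 386, 293, 232 and 281 CPM. Egr1 had 141, 92.7, 57.1 and 109 CPM and Fos had 43.6, 33.5, 16.5 and 28.9 CPM, so that WT 1118 was the highest and WT 1120 the lowest library for both, and WT 1118 was the highest for 10 of the 12 genes, beside 29.4% of all genes tested.

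Of the 5 genes listed here under the ghrelin system 2 had a mean of at least 1 CPM, and neither was the hormone nor its receptor. Ghrl, which encodes ghrelin, had 0.0619, 0, 0.109 and 0.164 CPM, at most 3 counts in a library, and Ghsr, its receptor, was listed at 0 with 0 junction reads. Bche, an esterase that removes the acyl group from ghrelin, had 24.0, 25.6, 15.4 and 22.6 CPM. Lyplal1, a lysophospholipase-like enzyme whose tie to ghrelin was not tested here, had 16.1, 15.2, 12.9 and 16.4 CPM. Both were lowest in WT 1120.

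**Figure D4:**
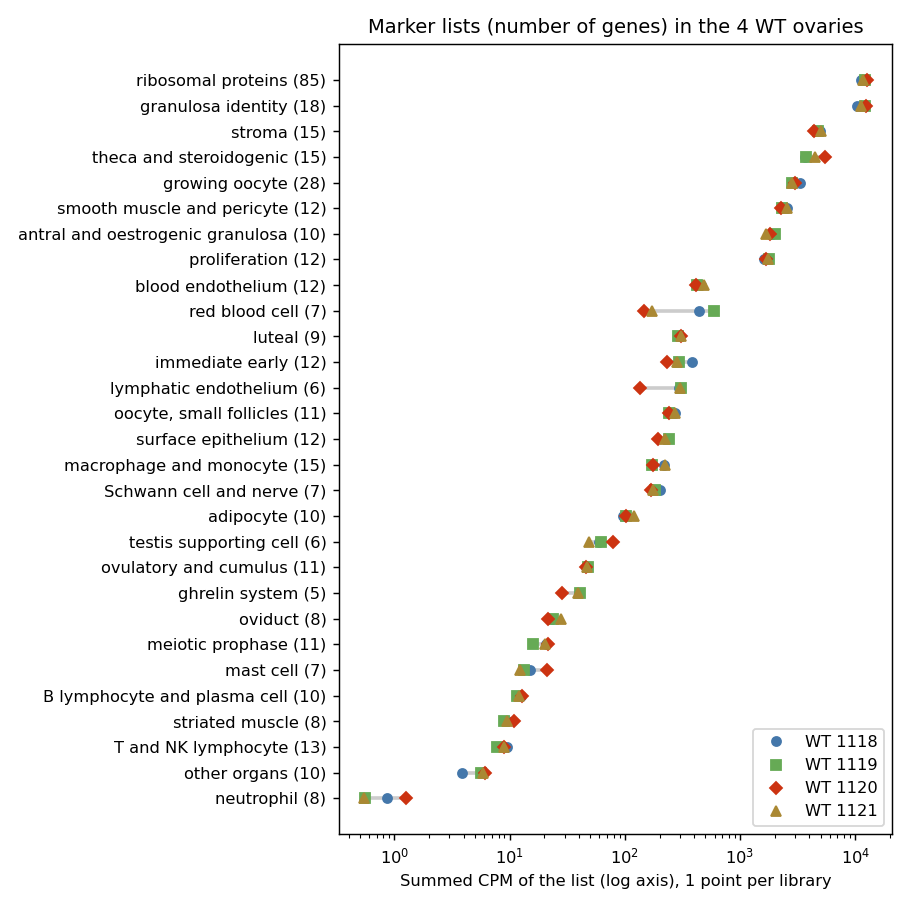
Summed CPM (x axis, log scale) of each marker list with counts above 0 (y axis, with its number of genes) in the 4 WT ovaries, 1 marker per library. The red blood cell and lymphatic lists show the widest grey bars among lists over 100 CPM, and the neutrophil list is the lowest of those drawn.

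Across all genes the 4 ovaries were close to each other. The median CV of genes with at least 1 CPM was 10.4%, with quartiles of 6.59% and 16.7%, where counting alone would give a median of 4.34%. The biological coefficient of variation from edgeR, which sets counting error aside, was 0.123, and 0.0896 without WT 1120, against 0.113 to 0.141 without any 1 of the other 3. Between the highest and the lowest library 9.15% of the genes tested (1516 of 16560) differed at least 2-fold, most of them at low counts, where counting error alone is wide. Among genes with at least 10 CPM there were 209 of 10897. The test called 9400 genes with all 4 libraries, 6028 without WT 1120 and 6786 without WT 1118, against 8939 and 8860 without WT 1119 and WT 1121.

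**Figure D5:**
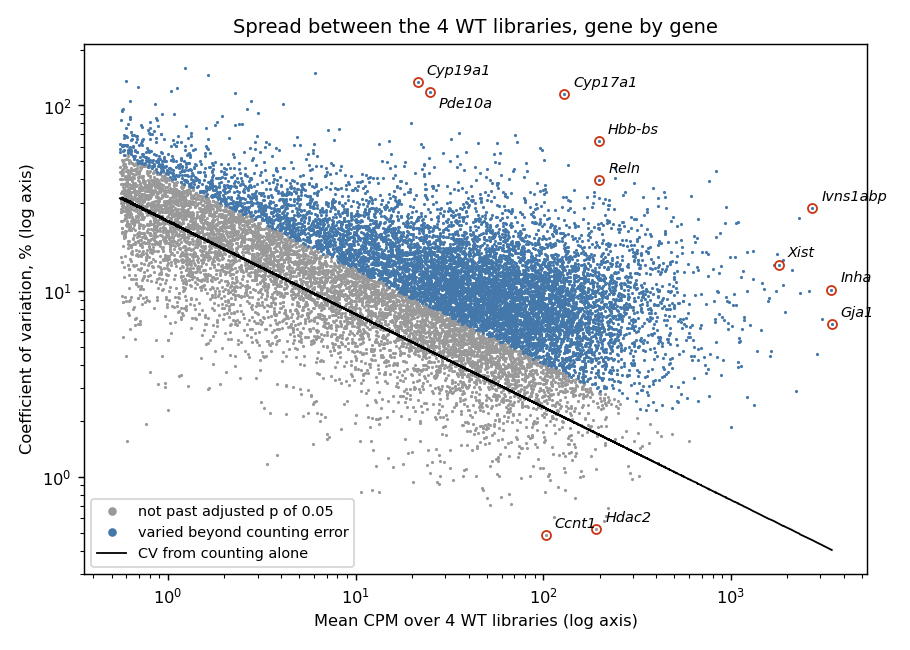
Coefficient of variation over the 4 WT libraries (y axis, log scale) against mean CPM (x axis, log scale) for the 16560 genes tested, 1 point per gene. The black line is the CV from counting alone, blue points varied beyond it, and Cyp19a1, Cyp17a1 and Pde10a stand highest among genes with at least 10 CPM, with Ccnt1 and Hdac2 among the lowest.

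Other genes were nearly level over the 4 libraries. Ccnt1, a cyclin of transcription elongation, had 102.6, 102.8, 102.7 and 103.7 CPM, and Hdac2, a histone deacetylase, had 193, 191, 192 and 192 CPM. Mbnl1, a splicing regulator, Rgp1, and Arih1, a ubiquitin ligase, completed the 5 genes with the smallest CV among those with at least 100 CPM, from 0.483 to 0.615%. For Ccnt1 counting alone gives a CV of 2.34% on average, so the observed 0.483% is below it. These 5 are the lowest of 2757 genes.

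Of the 20 genes with the largest CV among those with at least 10 CPM, 5 were the red blood cell genes Hba-a1, Hba-a2, Hbb-bs, Hbb-bt and Alas2. Another, Slc15a2, a peptide transporter, was split between the libraries, with 9.11, 4.56, 22.3 and 24.4 CPM. The other 14 were highest in WT 1120, beside 31.8% of all genes tested. Among genes with at least 10 CPM that differed at least 2-fold between libraries, WT 1120 was the highest for 48.3% (101 of 209). Picking genes by a large CV favours a library that stands apart, so the count of 14 is no independent measure of it. The 14 were Cyp19a1, Cyp17a1, Mgarp and Inhba, described above, and Pde10a, Lrp8, Fam20c, Susd3, Grin2c, Cbfa2t3, Tmem86a, Susd4, Scara5 and Scube1. Pde10a, which breaks down cyclic nucleotides, had 11.8, 9.07, 69.3 and 9.51 CPM, and 10.1 CPM on average without WT 1120. Lrp8, a receptor of reelin and apolipoprotein E, had 8.92, 11.4, 43.3 and 15.3 CPM, and 11.8 CPM on average without that library. Fam20c, a secretory kinase, had 52.1, 49.1, 141 and 46.8 CPM and Scube1, a secreted protein, had 40.8, 42.3, 109 and 45.0 CPM.

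WT 1120 also stood apart by number of genes. Among the 10897 genes with at least 10 CPM, 153 were at least 1.5-fold higher and 281 at least 1.5-fold lower in WT 1120 than the mean of the other 3 libraries. The same counts were 75 and 187 for WT 1118, 18 and 34 for WT 1119 and 9 and 30 for WT 1121. Chosen after their values were seen, Prkar2b, a regulatory subunit of the cAMP-dependent kinase, had 551, 675, 1377 and 726 CPM, Grb14, an adaptor of the insulin receptor, had 751, 712, 316 and 665 CPM, and Tdrd5, a germ cell gene, had 304, 334, 135 and 322 CPM. WT 1120 lay outside the other 3 libraries for each of them, above for the first and below for the others. Its total of 18083556 counts lay within the range of the other 3, its mapped share was 86.8% and its share of reads on no known feature, 10.02%, was the lowest, against 10.8 to 11.4%. The labels give no day or batch, so the animal and the handling of its ovary cannot be told apart.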

How the data were processed

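Total RNA of whole ovaries was sequenced as single reads of 50 bases (1 library per animal), after an RNA integrity number that the authors state to be at the maximum for each sample. The authors aligned cleaned reads to mm10 (GRCm38) with TopHat2 2.0.14, as the submitters' processing notes and the methods give it, and assigned reads to annotated genes. The deposited counts are whole numbers without normalization for 45583 gene symbols. The counting tool and its use of strand are not given in the sources used here. The authors also deposited counts of reads on splice junctions, percentages of reads mapped (percent of all reads of the library), and transcripts assembled with StringTie 1.0.4, whose deposited score is a constant and was not used. The authors' comparison with GOAT KO libraries was not used.

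From the counts, CPM were computed over the 4 WT libraries with TMM factors (0.990 to 1.01) of edgeR 4.0.16 in R 4.3.3. Genes with a mean of at least 10 counts per library were tested by chi-square against Poisson counts in proportion to the scaled totals, with Benjamini-Hochberg adjustment and a threshold of 0.05. The test was tried on simulated Poisson counts of 16560 genes without spread between animals. It recovered 53.0, 65.0 and 88.5% of genes raised 1.25-, 1.5- and 2-fold in 1 library, over genes of all levels together. The real libraries also differ between animals, so these rates do not carry over to them. Lengths and positions come from GENCODE vM21, a later release than the authors' guide, matched by identifier for 11624 symbols and by symbol for 31153. No position was found for 2806. Promoters come from RefSeq (GRCm38.p6).

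Genes are named by rule: the 15 highest by CPM and by CPM per kb, the first and the 3 highest genes of each of 30 lists with those at 3 counts or fewer in all, the 20 largest and the 5 smallest CV above 10 and 100 CPM, the 5 highest of each class other than protein coding above 0.1% of counts, and Mboat4, Ghrl and Ghsr. A few genes that these rules name are not reported here. Others are list members or are said to be chosen later. The libraries, lists and rules were chosen with earlier results of these data known. Each value comes from 1 sample per animal, and p-values measure the spread between these samples only. Alternatives were RLE factors, plain totals, totals without mitochondrial genes, other filters, Bonferroni adjustment, lengths of the longest transcript, and leaving out each library or each list's leading gene.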

Additional observations from a re-analysis of the deposited data

Results flagged for a closer look

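The gap of the highest or lowest library to the nearest of the others was set against the range of the 4, with Dixon's 95% critical value, for 172 values (the summed lists and the named genes with at least 1 CPM). Chance flags about 1 in 20 groups, and 21 values passed, 16 of them with WT 1120 apart, 4 with WT 1118 and 1 with WT 1121. The named genes include those with the largest CV, so this count is no sample of the transcriptome.

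WT 1120 was apart upwards for Cyp19a1 (64.5 CPM, the others at most 9.73), Cyp17a1 (352, at most 58.8), Pde10a (69.3, at most 11.8), Fam20c (141, at most 52.1), Susd3 (86.8, at most 33.3), Grin2c (43.2, at most 17.3), Cbfa2t3 (43.3, at most 19.3), Tmem86a (181, at most 71.2), Scara5 (53.6, at most 22.2), Scube1 (109, at most 45.0) and Cldn11 (8.72, at most 6.19). It was apart downwards for the summed lymphatic list (136 CPM, the others at least 295), which follows Reln (82.0, at least 226), the summed ghrelin system list (28.4, at least 39.3), Sycp2 (3.16, at least 3.66) and Cd247 (1.04, at least 1.26). For Sycp2 and Cd247 the 4 libraries did not differ beyond counting error.

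WT 1118 was apart upwards for Eef1a1 (2537 CPM, the others at most 2027), Rpl4 (1766, at most 1618) and Pmp22 (114, at most 99.3) and downwards for Rpl14-ps1 (252, at least 298). WT 1121 was apart upwards for Malat1 (870, at most 662).

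Signal stood in files outside the gene counts for genes that the count table lists at 0. Over the 4 libraries 43 assembled transcripts lay on the mitochondrial genome, none of them tied to an annotated gene, while its protein-coding genes had 0 counts. At least 10 junction reads were found for 81 genes at 0 counts, and at least 100 for 40 of them. Among protein-coding genes with at least 95% of their exon length shared with another gene of the same strand and under 50% with one of the other strand, 70 of 82 (85.4%) had 0 counts, against 18.8% of those with under 1% shared. Of the 81 genes with junction reads, however, 1 shared over 50% of its exon length on the same strand and 75 shared none.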

How the results depend on the processing

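The count of genes that varied beyond counting error, 9400, fell to 4366 with Bonferroni adjustment and was between 6028 (without WT 1120) and 8939 when 1 library was left out, with 6786 without WT 1118. With RLE factors, plain totals, other filters on counts and thresholds of 0.5 or 5 CPM, the counts of varied and expressed genes stayed within 1.5 times the values given. No list sum or named gene moved by more than its SD with RLE factors or plain totals. Totals without mitochondrial genes were the same totals, since these genes are at 0 counts, and test nothing. Named genes whose mean moved by over 1.5 times without WT 1120 were Cyp19a1, Cyp17a1, Pde10a, Lrp8 and Mgarp, and without WT 1121 Adipoq was 0.774 CPM in place of 1.248 and Cfd 1.11 in place of 1.94. Per kb values moved by more than the SD over libraries for 101 of 225 genes and lists when the longest transcript gave the length. With plain totals WT 1120 was the highest library for 35.8% and the lowest for 29.2% of all genes tested, the highest for 57 of the 83 ribosomal protein genes and the lowest for 9 of the 15 stromal genes. Leaving out each list's leading gene moved 28 of 30 sums by more than their SD. The mean summed CPM were then oocyte, small follicles 167 (without Kit), growing oocyte 2594 (without Padi6), meiotic prophase 14.5 (without Smc1b), granulosa identity 8066 (without Gja1), antral and oestrogenic granulosa 788 (without Slc18a2), ovulatory and cumulus 14.3 (without Adamts1), luteal 152 (without Cdkn1b), theca and steroidogenic 2442 (without Hsd3b1), stroma 3618 (without Col3a1), smooth muscle and pericyte 1571 (without Acta2), blood endothelium 358 (without Cdh5), lymphatic endothelium 60.6 (without Reln), surface epithelium 170 (without Upk3b), macrophage and monocyte 139 (without Lyz2), T and NK lymphocyte 5.01 (without Lck), B lymphocyte and plasma cell 6.54 (without Ighm), mast cell 1.31 (without Hdc), neutrophil 0.221 (without Mpo), Schwann cell and nerve 79.9 (without Pmp22), adipocyte 54.8 (without Pparg), oviduct 12.3 (without Ccdc39), striated muscle 4.52 (without Actn3), other organs 3.23 (without Sftpc), testis supporting cell 11.5 (without Dhh), proliferation 1233 (without Top2a), immediate early 198 (without Egr1), ghrelin system 15.3 (without Bche) and ribosomal proteins 10340 (without Rpl4). The sum of red blood cell genes was 138 in place of 337 CPM without Hbb-bs, which is within its wide SD of 215 CPM, and mitochondrial genes were at 0. No paired analysis was possible because no replicate number is shared between groups and no groups were tested against each other. Depth limits genes under 10 counts per library, which were not tested.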
